A study of Mus musculus with 8 samples.

Results

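Fibronectin (Fn1) and 9 integrin subunits were followed in brain endothelial cells of young mice with and without endothelial Yap and Taz. The 10 genes were picked by symbol, out of 24394 symbols shared by all 8 libraries: the ligand Fn1, the alpha subunits Itga1, Itga3, Itga4, Itga5, Itga6 and Itgav, and the beta subunits Itgb1, Itgb3 and Itgb5. They were chosen with the comparison of the groups in view, so their values are given as a description and carry no test. The YT-ECKO group holds 4 libraries from VE-cadherin-CreERT2 Yapf/f Tazf/f mice, and the WT group holds 4 libraries from wild-type mice. Both groups carry the strain label C57BL/6J, and all cells were sorted by flow cytometry from brain at P8. The VE-cadherin promoter directs an inducible Cre to endothelial cells. Whether WT mice carried Cre or received the inducing agent is not stated in the labels, so the deletion cannot be told apart from Cre or its induction. Nothing in the labels ties each library to a mouse of its own, so errors measure the spread between these samples, which may be technical.

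Integrins are receptors made of 1 alpha and 1 beta chain that tie the cytoskeleton to the extracellular matrix. Fibronectin is a secreted glycoprotein that cells assemble into fibrils, and it is a prominent matrix protein of growing vessels. The alpha 5 beta 1 receptor (Itga5 with Itgb1) and alpha v receptors (such as Itgav with Itgb3 or Itgb5) bind its arginine-glycine-aspartate (RGD) site. Alpha 4 beta 1 (Itga4 with Itgb1) binds a leucine-aspartate-valine (LDV) site in the variable region of fibronectin. The chains made by Itga3 and Itga6 pair with beta 1 to bind laminins of the basement membrane, and the chain made by Itga1 pairs with beta 1 to bind collagens.

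The sites that integrins recognise are shown first, as the coding strand of GENCODE M21 transcripts on GRCm38, because they separate the receptors into those that read RGD and those that read LDV. Capitals mark the codons of the site. The Fn1 coding sequence searched held 2 matches to RGD and 2 to LDV. Shown are the RGD followed by serine and the LDV preceded by glutamate and isoleucine. The RGD stretch lies at chr1:71606719-71606781 on the minus strand and the LDV stretch at chr1:71597656-71597718 on the same strand.
Fn1 RGD site: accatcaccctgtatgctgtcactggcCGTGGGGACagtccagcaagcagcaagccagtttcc
Fn1 LDV site: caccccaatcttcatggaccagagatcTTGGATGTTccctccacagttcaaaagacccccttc

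Many integrin alpha chains share a short stretch just inside the membrane. It is shown, with its codons in capitals, for 5 of the 6 alpha members, because these receptors differ in ligand and share these residues. The Itga3 transcript searched held no exact match to the 5 residues and is not shown. Each stretch spans an intron in the genome. Itga1 lies at chr13:114960105-114965606 (minus strand), Itga4 at chr2:79325686-79326549 (plus), Itga5 at chr15:103345323-103345960 (minus), Itga6 at chr2:71849498-71855883 (plus) and Itgav at chr2:83802994-83803269 (plus). Of the 15 capital positions, 9 held the same base in all 5 genes.
Itga1: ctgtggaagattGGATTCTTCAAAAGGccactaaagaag
Itga4: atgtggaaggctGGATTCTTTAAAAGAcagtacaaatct
Itga5: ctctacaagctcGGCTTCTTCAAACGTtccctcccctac
Itga6: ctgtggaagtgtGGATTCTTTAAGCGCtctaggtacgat
Itgav: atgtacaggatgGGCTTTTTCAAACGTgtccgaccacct

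Values are scaled reads, the deposited log2 values returned to the linear scale. The depth implied by the steps between low values ran from 6.66 to 13.61 M reads in YT-ECKO and from 7.43 to 16.86 M in WT. Listed zeros were frequent among genes with at least 100 scaled reads elsewhere in their group: 45.3% of such genes in YT-ECKO and 33.4% in WT had a 0 in another library of that group, so a listed 0 does not show that a gene is off. The targeted genes followed the labels. Wwtr1, which encodes Taz, averaged 1335 ± 939 scaled reads in YT-ECKO and 6633 ± 1159 in WT (SD, n = 4 each), and limma gave an adjusted p of 0.0113. The adjusted p of Wwtr1 was 0.0677 without YT-ECKO 4, 0.0755 without WT 1 and 0.058 without WT 2, and its log2 difference stayed between -2.83 and -1.99 with any library left out (limma). Yap1 averaged 327.4 ± 248 in YT-ECKO and 1964 ± 613 in WT (SD, n = 4 each), where the adjusted p in limma was 0.175. All 10 endothelial markers were above 0 in both groups, and their sum was 142212 to 203484 in YT-ECKO and 169661 to 191276 in WT. In such bulk samples, fewer cells of a type and less RNA per cell cannot be told apart.

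Fn1 (ENSMUSG00000026193.15, GRCm38 chr1:71585520-71653200, minus strand) was an abundant transcript in every library and lower in each YT-ECKO library than in any WT library. It had 23090, 45450, 45168 and 25709 scaled reads across YT-ECKO libraries 1 to 4, against 58130, 61530, 79961 and 58292 across WT libraries 1 to 4. The YT-ECKO libraries divided into a lower pair, 1 and 4, and a higher pair, 2 and 3, and the groups did not overlap. The means were 34854 ± 12120 in YT-ECKO and 64478 ± 10440 in WT (SD, n = 4 each), which put YT-ECKO at 54.1% of WT. limma was fitted on log2 of scaled reads plus a pseudocount of 2 to the power of 7, a scale that understates changes of low genes. On that scale the difference was -0.94 ± 0.22 (SE), with a 95% interval of -1.39 to -0.49. Among all 10 members, Fn1 was the 1 whose groups did not overlap. The background over all 8706 tested genes was 2.07% lower without overlap and 1.33% higher without overlap.

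Fn1 took 0.3299 ± 0.116% of all scaled reads in YT-ECKO libraries and 0.6019 ± 0.0912% in WT libraries (SD, n = 4 each). Ranked by abundance within its library, it stood at positions 24, 8, 10 and 24 across YT-ECKO libraries 1 to 4, against 6, 8, 5 and 9 across WT libraries 1 to 4. It was therefore still among the most abundant transcripts of the YT-ECKO libraries. Of the 111 tested genes averaging 10000 scaled reads or more, Rpl34, a ribosomal protein gene named after its value was seen, had a lower difference than Fn1 (-1.16), and the median of the 111 was -0.04. Over all tested genes 552 had a lower difference than Fn1.

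The spread of Fn1 was wider in YT-ECKO, with a coefficient of variation of 34.8%, against 16.2% in WT. Across YT-ECKO libraries 1 to 4, Wwtr1 had 348.0, 2608, 1261 and 1124 scaled reads, and Yap1 had 9.286, 604.7, 293.3 and 402.3. The 4 libraries stood in the same order for Wwtr1 as for Fn1, while for Yap1 libraries 3 and 4 changed places. These are descriptions, since 4 libraries are too few for a correlation. Some other measures also moved with this split, and some did not. YT-ECKO 1 and 4 had the lower depths of their group, 6.66 and 9.43 M, against 12.07 and 13.61 M for YT-ECKO 2 and 3. The share of the ribosomal RNA precursor Rn45s was 13.8% and 14.8% in YT-ECKO 1 and 4, against 10.8% and 8.97% in YT-ECKO 2 and 3. With the Rn45s share as a covariate the Fn1 difference was -0.90 (SE 0.18). With Xist as a covariate the Fn1 difference was -0.74 (SE 0.24). Xist had 6299, 8434, 4150 and 6.91 scaled reads across YT-ECKO libraries 1 to 4, which did not follow the split. Across WT libraries 1 to 4 it had 17929, 8255, 22931 and 4611, and the groups overlapped. Why Xist differed between libraries was not tested. The erythroid markers summed to 48278 and 43662 scaled reads in YT-ECKO 1 and 4, against 13411 and 35749 in YT-ECKO 2 and 3, the reverse of the order of Fn1. The neuron markers summed to 1896 and 878.6 in YT-ECKO 1 and 4, against 218.3 and 17.62 in YT-ECKO 2 and 3. The mural cell markers summed to 155.6 and 396.5 in YT-ECKO 1 and 4, against 825.4 and 1248 in YT-ECKO 2 and 3. The perivascular fibroblast markers summed to 215.4 and 203.3 in YT-ECKO 1 and 4, against 71.8 and 0 in YT-ECKO 2 and 3. The endothelial, astrocyte, oligodendrocyte, leukocyte and platelet marker sums did not follow the split. Across YT-ECKO libraries 1 to 4 the endothelial sums were 142212, 191120, 203484 and 193591. The astrocyte sums were 3.136, 0, 387.3 and 220.6. The part of depth and of these cells in the spread was not tested.

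**Figure D1:**
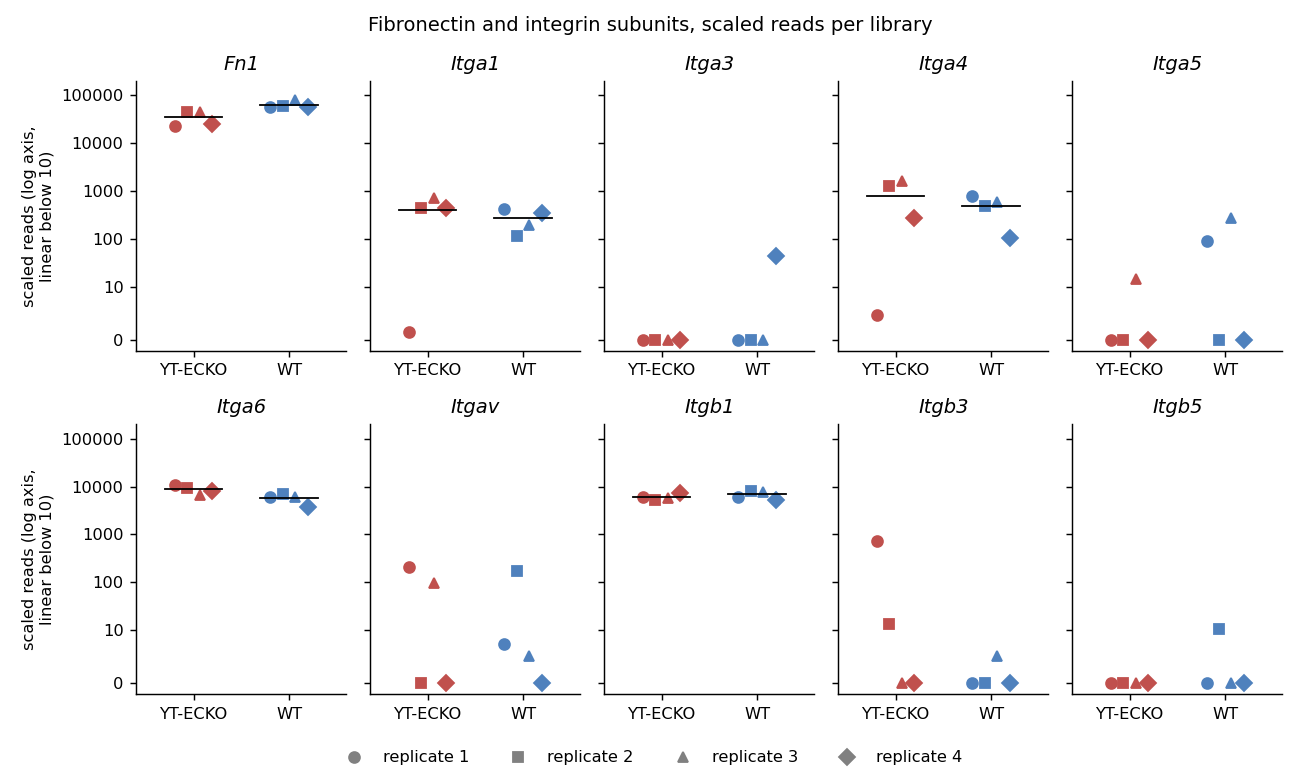
Scaled reads of the 10 members in each library, YT-ECKO left of WT, 1 point per library. A line marks the mean where a member was above 0 in all 8 libraries. Fn1 is the member whose groups do not overlap, at 23090 to 45450 in YT-ECKO and 58130 to 79961 in WT.

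The markers of other cell types that make fibronectin were low beside it. The 11 mural cell markers summed to 155.6 to 1248 scaled reads in YT-ECKO, where 8 of them were above 0, and to 412.7 to 1821 in WT, where all 11 were. The 7 perivascular fibroblast markers summed to 0 to 215.4 in YT-ECKO and 110.1 to 474.4 in WT, and Lum and Col6a3 were listed at 0 in all 8 libraries. Both sums overlapped between the groups. The 6 erythroid markers, which are high in both groups, summed to 13411 to 48278 in YT-ECKO and 13236 to 37584 in WT. The part of these cells in the Fn1 values was not tested. Apol7d, whose gene overlaps exons of Fn1 on the opposite strand, was listed at 0 in all 8 libraries.

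Itgb1 (chr8:128685654-128733200, plus strand), the beta chain shared by the collagen and laminin receptors and some of the fibronectin receptors named above, did not separate the groups. It had 6026, 5110, 5729 and 7221 scaled reads across YT-ECKO libraries 1 to 4, against 5997, 8249, 7777 and 5282 across WT libraries 1 to 4. The groups overlapped across most of their range. Means were 6021 ± 886 in YT-ECKO and 6826 ± 1414 in WT (SD, n = 4 each). The difference was -0.17 ± 0.28 (SE) on the log2 scale with a 95% interval of -0.73 to 0.40, which holds changes of either sign.

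Itga6 (chr2:71745616-71858416, plus strand), the laminin-binding alpha chain, was the other integrin member that was well above 1000 scaled reads in each library. It had 10668, 9469, 6766 and 8209 across YT-ECKO libraries 1 to 4, against 6170, 6980, 6089 and 3777 across WT libraries 1 to 4. YT-ECKO 1, 2 and 4 lay above every WT library, and YT-ECKO 3 lay below WT 2. Means were 8778 ± 1676 in YT-ECKO and 5754 ± 1378 in WT (SD, n = 4 each). The log2 difference was 0.61 ± 0.28 (SE), with a 95% interval of 0.04 to 1.19, and its sign was opposite to that of Fn1. The lower bound of this interval was -0.09 without YT-ECKO 1, -0.08 without YT-ECKO 2, -0.16 without WT 4 and -0.04 with array weights, and it rounded to 0 without YT-ECKO 4 and with voom.

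**Figure D2:**
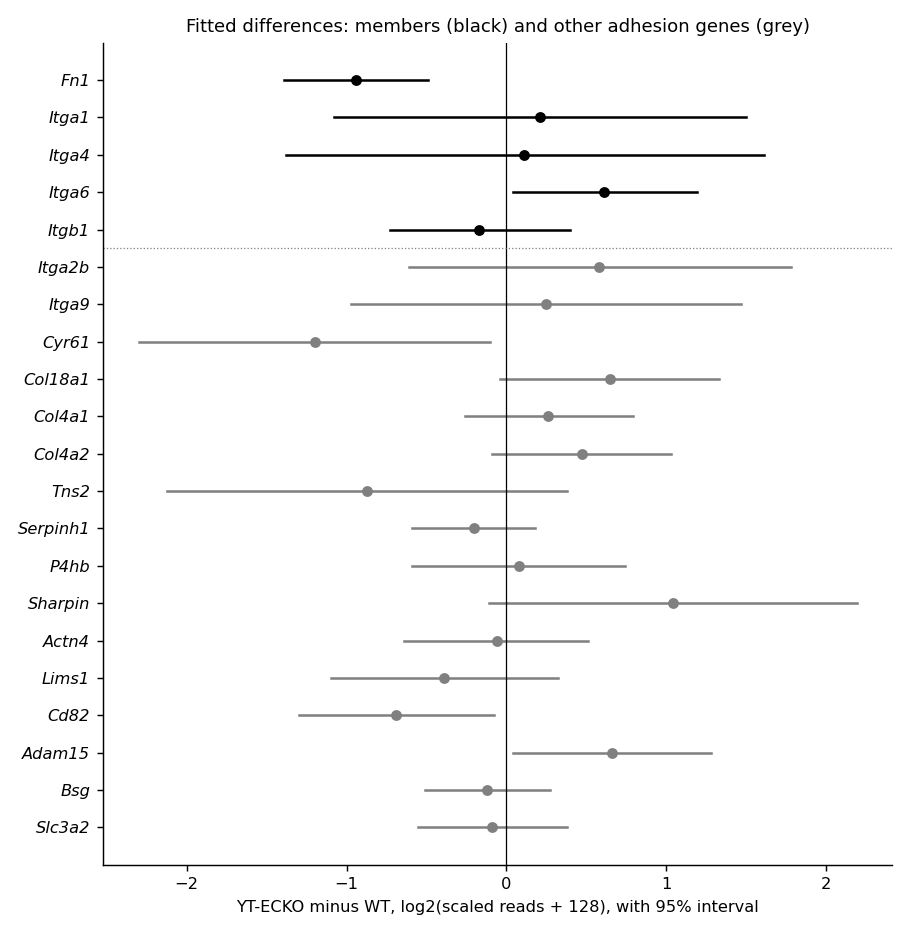
YT-ECKO minus WT difference on the log2 scale with its pseudocount for the 5 members that passed the filter (black) and the genes named from the pathway lists (grey), with bars for the 95% interval. The interval of Fn1 runs from -1.39 to -0.49, and those of Itgb1, Itga1 and Itga4 span 0. The interval of Itga6 runs from 0.04 to 1.19 here and spans 0 with some libraries left out.

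Set against each other inside each library, where scaling cancels, the ligand and its receptor chains gave the following ratios. Fn1 over Itga6 was 2.16, 4.8, 6.68 and 3.13 across YT-ECKO libraries 1 to 4, against 9.42, 8.82, 13.1 and 15.4 across WT libraries 1 to 4. The groups did not overlap, and 6.67% of tested genes over Itga6 were lower in YT-ECKO without overlap. Fn1 over Itgb1 was 3.83, 8.9, 7.88 and 3.56 across YT-ECKO libraries 1 to 4, against 9.69, 7.46, 10.3 and 11 across WT libraries 1 to 4, and here YT-ECKO 2 and 3 reached into the WT range. Itga6 over Itgb1 was 1.77, 1.85, 1.18 and 1.14 across YT-ECKO libraries 1 to 4, against 1.03, 0.846, 0.783 and 0.715 across WT libraries 1 to 4. Every YT-ECKO library had more Itga6 than Itgb1 reads, and the groups did not overlap, against 1.71% of tested genes over Itgb1 that were higher without overlap.

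**Figure D3:**
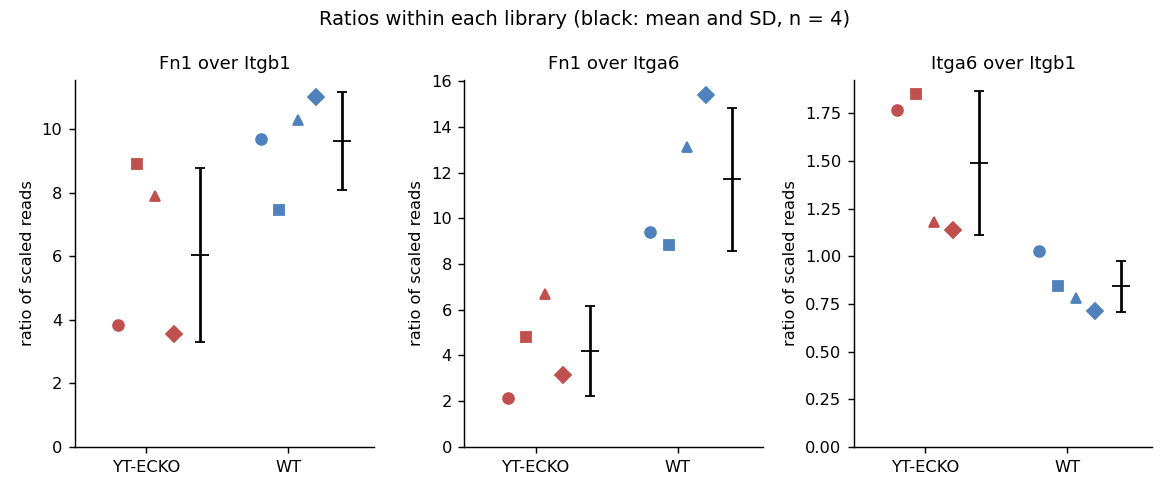
Ratios of scaled reads within each library for Fn1 over Itgb1, Fn1 over Itga6 and Itga6 over Itgb1, YT-ECKO left of WT, 1 point per library. The ratio of Fn1 over Itga6 is 2.16 to 6.68 in YT-ECKO and 8.82 to 15.4 in WT, while Fn1 over Itgb1 overlaps.

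The RGD-binding alpha chains Itga5 and Itgav and the beta chains Itgb3 and Itgb5 had at most 723.6 scaled reads in any library. Most of their values were 0. Itga5 (chr15:103344286-103366763, minus strand), the alpha chain of the main fibronectin receptor, was listed at 0, 0, 14.55 and 0 across YT-ECKO libraries 1 to 4, against 89.08, 0, 271.2 and 0 across WT libraries 1 to 4. Itgav (chr2:83724397-83806916, plus strand) had 204.6, 0, 97.48 and 0 across YT-ECKO libraries 1 to 4, against 7.326, 169.0, 5.18 and 0 across WT libraries 1 to 4. Neither gene was above 0 in all libraries of a group, and their values give no direction.

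Itgb3 (chr11:104608000-104670476, plus strand), a beta partner of alpha v, had 723.6, 13.28, 0 and 0 across YT-ECKO libraries 1 to 4, against 0, 0, 5.18 and 0 across WT libraries 1 to 4. YT-ECKO 1 held nearly all of these reads. Itgb5 (chr16:33829665-33949338, plus strand), another beta partner of alpha v, was listed at 0 in all libraries but WT 2, which had 10.71. Itga3 (chr11:95044474-95076801, minus strand), a laminin-binding alpha chain, was listed at 0 in all libraries but WT 4, which had 44.76. These 5 genes did not reach 10 scaled reads in 4 libraries and stayed out of the fit, so 5 of the 10 members were fitted, and no fold is given for the rest.

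Itga4 (chr2:79255426-79333123, plus strand), the chain of the LDV receptor, varied more within groups than between them. It had 4.672, 1298, 1594 and 277.0 scaled reads across YT-ECKO libraries 1 to 4, against 810.7, 478.7, 598.4 and 104.4 across WT libraries 1 to 4. The log2 difference was 0.11 ± 0.72 (SE), with a 95% interval of -1.38 to 1.61. Cerkl, whose exons overlap those of Itga4 on the opposite strand, was listed at 0 in all YT-ECKO libraries and had 62.68, 0, 63.21 and 0 in WT 1 to 4. The sources used here do not give the strand setting of the counting, so reads of the pair cannot be told apart.

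Itga1 (chr13:114953096-115101964, minus strand), the collagen-binding chain, likewise had a library near 0. Gm49395 shares 685 bases of its exons, and Pelo lies within its span on the same strand. Its scaled reads were 1.592, 436.2, 732.2 and 455.1 across YT-ECKO libraries 1 to 4, against 418.2, 117.5, 193.1 and 353.1 across WT libraries 1 to 4. The log2 difference was 0.21 ± 0.63 (SE), with a 95% interval of -1.08 to 1.5. For both Itga1 and Itga4 the lowest value belonged to YT-ECKO 1, the library with the least depth. The sign of both depends on the pseudocount and on single libraries: with a pseudocount of 1 the Itga1 difference was -0.79 and the Itga4 difference -0.73.

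To compare levels between genes, scaled reads were divided by the length of all exons of the gene in kilobases. Fn1 stood first with a mean of 2983 scaled reads per kilobase in YT-ECKO and 5518 in WT. Itgb1 came next with 1475 in YT-ECKO and 1673 in WT, followed by Itga6 with 972.6 in YT-ECKO and 637.6 in WT. Within either group these steps, and the step from Itga6 down to Itga4, did not overlap between libraries, while all lower neighbours overlapped. Below Itga4 the means ran Itgb3, Itga1, Itgav and Itga5 in YT-ECKO, and Itga5, Itga1, Itgav, Itga3, Itgb5 and Itgb3 in WT. The labels name a Lexogen Quant-Seq kit, and which part of a transcript was read is not settled by them. Where reads come only from the end of a transcript, dividing by length is not suitable, and the levels without length correction apply. The order of Itgb1 and Itga6 depends on the length used. Per kilobase of the longest transcript Itga6 stood above Itgb1 in YT-ECKO, at 2037 against 1578, and without length correction likewise, at 8778 against 6021 scaled reads. Under either choice the values of both genes overlapped in both groups.

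**Figure D4:**
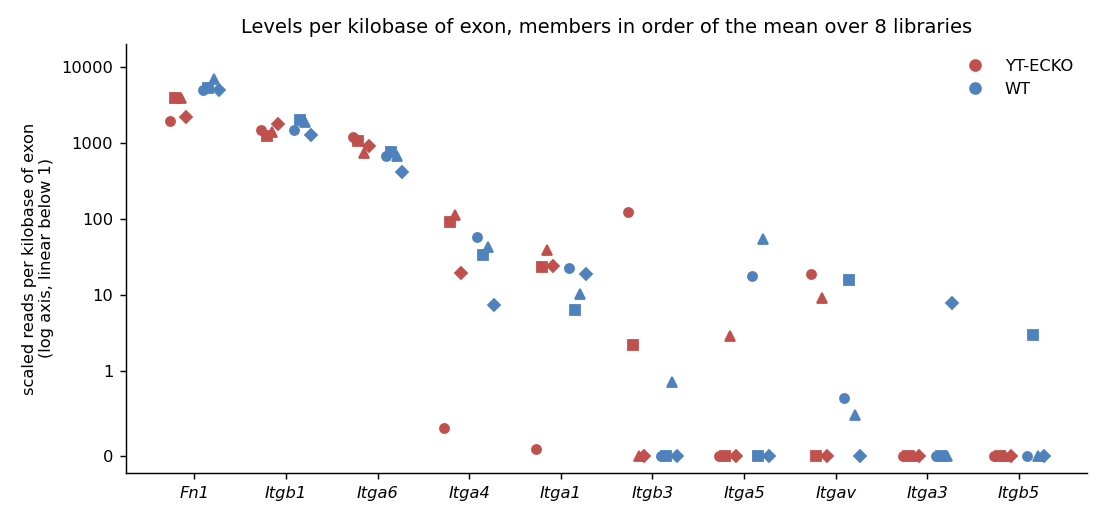
Levels of the members in scaled reads per kilobase of exon, YT-ECKO left of WT, 1 point per library. On this length Fn1, Itgb1 and Itga6 stand apart in that order within each group, while per kilobase of the longest transcript Itgb1 and Itga6 overlap. Their means here are 2983, 1475 and 972.6 in YT-ECKO and 5518, 1673 and 637.6 in WT.

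Itga6 made up 83.6 ± 6.47% of all integrin alpha reads per kilobase in YT-ECKO and 83.6 ± 0.619% in WT (SD, n = 4 each). Itgb1 made up 97.3 ± 3.62% of the beta reads per kilobase in YT-ECKO and 99.0 ± 1.1% in WT (SD, n = 4 each). Without length correction Itga6 made up 81.8 ± 9.85% of the alpha reads in YT-ECKO and 82.5 ± 1.67% in WT (SD, n = 4 each). Itgb1 then made up 96.7 ± 5.09% of the beta reads in YT-ECKO and 98.3 ± 1.89% in WT (SD, n = 4 each). The set of chains was thus mostly those of the laminin receptor alpha 6 beta 1 in both groups, with or without length correction. The 9 integrin members summed to 16262 ± 1103 scaled reads in YT-ECKO and 13499 ± 2820 in WT (SD, n = 4 each), and the groups overlapped.

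Of 26 integrin subunits, 8 were listed at 0 in all 8 libraries, among them Itgal, Itgam and Itgax, the alpha chains of leukocyte integrins. Itgb2, a beta chain of leukocyte integrins, had 109.3 scaled reads in YT-ECKO 2 and was listed at 0 elsewhere. The 7 microglia and leukocyte markers summed to 0 to 129.6 in YT-ECKO and 0 to 161.3 in WT. Of the 17 subunits outside the members, Itga2b and Itga9 passed the filter. Itga2b, the platelet alpha chain that pairs with beta 3, had 478.7, 285.4, 118.9 and 401.2 scaled reads across YT-ECKO libraries 1 to 4, against 55.83, 299.4, 84.86 and 259.6 across WT libraries 1 to 4, and limma gave an adjusted p of 0.99. The groups overlapped. Itga9, an alpha chain that pairs with beta 1, was listed at 0 in YT-ECKO 1 and 3, had 656.2 and 183.8 in YT-ECKO 2 and 4, and ranged from 6.912 to 255.1 in WT (limma adjusted p = 0.991). Of the 6 platelet markers, Pf4, Ppbp, Gp9, Gp1ba and Gp6 were listed at 0 in all 8 libraries. The remaining marker, Gp1bb, had 0, 28.34, 273.2 and 432.0 scaled reads across YT-ECKO libraries 1 to 4, against 65.07, 91.77, 0 and 39.78 across WT libraries 1 to 4. The part of platelets in the Itga2b values was not tested.

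Around the members, 5 lists of pathway genes were read from the same fit. They hold 113 genes, of which 77 were tested, and limma called 0 of them at an adjusted p under 0.05, where 0.0345% of all 8706 tested genes were called. At an unadjusted p under 0.05 there were 4 of the 77 and 476 of all tested genes, and voom on rebuilt reads called 0. Of the 77, 37 had a higher and 40 a lower fitted value in YT-ECKO, where 43.1% of all tested genes were higher and 56.9% lower. The median log2 difference of the 77 was -0.07, against -0.09 over all tested genes.

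Among 19 tested ligands of integrins other than Fn1, 7 had higher and 12 lower fitted values in YT-ECKO (list median -0.20). Cyr61, a secreted matricellular ligand, had 69.36, 179.9, 486.1 and 276.9 scaled reads across YT-ECKO libraries 1 to 4, against 625.6, 644.9, 790.7 and 659.4 across WT libraries 1 to 4. Its groups did not overlap, and it was the 1 gene of the 77 tested list genes for which this held. Over all tested genes, 2.07% were lower and 1.33% higher without overlap. For Cyr61 limma gave a difference of -1.20 ± 0.54 (SE) with an adjusted p of 0.882. The basement membrane collagens Col4a1, Col4a2 and Col18a1 had differences of 0.26 ± 0.26, 0.47 ± 0.27 and 0.65 ± 0.33 (SE), with limma adjusted p of 0.99, 0.96 and 0.928.

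Among 14 tested genes of fibronectin matrix assembly and its regulation, 7 had higher and 7 lower fitted values, with a median of -0.02. Serpinh1, a collagen chaperone, averaged 46353 ± 9639 scaled reads in YT-ECKO and 52784 ± 6796 in WT (SD, n = 4 each; limma adjusted p = 0.99). P4hb, a subunit of collagen prolyl hydroxylase, averaged 3543 ± 546 in YT-ECKO and 3412 ± 896 in WT (SD, n = 4 each; limma adjusted p = 0.994). The focal adhesion adaptor Tns2 differed by -0.87 ± 0.61 on the log2 scale (SE; limma adjusted p = 0.981).

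The 28 tested activators and adaptors of integrins divided into 14 higher and 14 lower fitted values, with a median of -0.02. Of the integrin inhibitor Sharpin, WT 2 and WT 4 were listed at 0, and its log2 difference was 1.04 ± 0.56 (SE; limma adjusted p = 0.928). The actin crosslinker Actn4 and the adaptor Lims1, the highest of the list per kilobase, had log2 differences of -0.06 ± 0.28 and -0.39 ± 0.35 (SE), with limma adjusted p of 0.994 and 0.99.

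The 14 tested membrane partners of integrins divided into 7 higher and 7 lower fitted values, with a median of -0.03. The tetraspanin Cd82 averaged 6128 ± 1314 in YT-ECKO and 10334 ± 3732 in WT (SD, n = 4 each; limma adjusted p = 0.872). Adam15, a membrane protease, averaged 8210 ± 2106 in YT-ECKO and 5227 ± 1502 in WT (SD, n = 4 each; limma adjusted p = 0.882). Bsg, a membrane glycoprotein abundant at the blood-brain barrier, averaged 62772 ± 12194 in YT-ECKO and 68617 ± 16068 in WT (SD, n = 4 each; limma adjusted p = 0.99). Slc3a2, an amino acid transporter chain that binds beta integrins, averaged 17783 ± 3224 in YT-ECKO and 18897 ± 3326 in WT (SD, n = 4 each; limma adjusted p = 0.991).

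**Figure D5:**
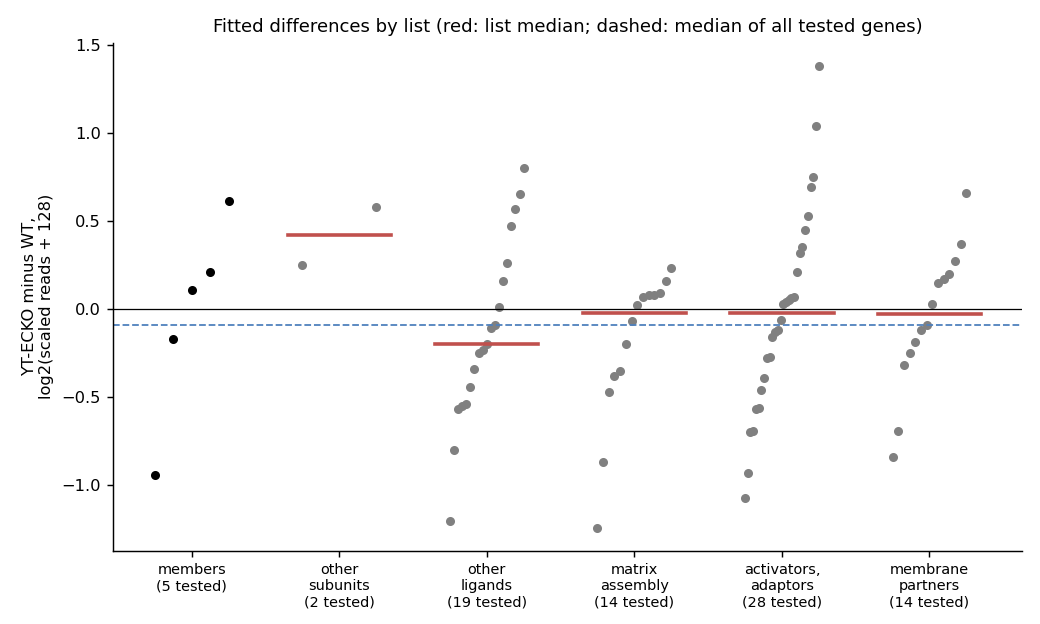
YT-ECKO minus WT difference on the log2 scale with its pseudocount, 1 point per tested gene, for the members and the 5 pathway lists. Red lines mark list medians, which run from -0.20 for the ligands to 0.42 for the 2 other subunits, and the dashed line marks the median of all tested genes, -0.09.

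The genes whose profile over the 8 libraries was most like that of Fn1 were Polr2c, Slc30a1, Ptprb, Dok4 and Dync1i2. Likeness was the root mean square difference between log2 values centred on each gene's mean, over 1934 genes, and since it spans both groups it holds the contrast that chose the members. It was 0.137 for Polr2c, an RNA polymerase II subunit, 0.182 for the zinc exporter Slc30a1 and 0.212 for Ptprb, an endothelial receptor phosphatase. It was 0.225 for the docking protein Dok4 and 0.242 for Dync1i2, a dynein chain, against a median of 0.761 over all genes compared. Itgb1 stood at 0.588 and Itga6 at 0.918. Ptprb averaged 2424 ± 751 scaled reads in YT-ECKO and 4887 ± 638 in WT (SD, n = 4 each).

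Yap and Taz act on DNA through TEAD factors, so the RefSeq promoter windows (GRCm38.p6, 250 bases before to 50 after the gene start) were searched on both strands for the TEAD core GGAATG. Windows were matched for 7 of the 10 members, giving 8 windows. Fn1, Itga6 and Itgb3 had no matched window and were not searched. The letters occurred in 1 of these 8, and in 14.7% of 32851 windows overall. The match is a description and not a site. It lies in the window of Itgb1 at chr8:128685627-128685672 on the plus strand, with the motif in capitals.
Itgb1 promoter stretch: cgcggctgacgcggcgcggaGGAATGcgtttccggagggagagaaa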

How the data were processed

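RNA of sorted brain endothelial cells was measured in 4 YT-ECKO and 4 WT libraries. Per the labels' protocols, a Lexogen Quant-Seq kit was used on Trizol-extracted total RNA. Per the submitters' processing notes, Bowtie2, edgeR and mm10 were used. The sources used here do not give versions, counting tool, strand setting or annotation. The authors deposited log2 values per gene symbol. Low linear values lay within 0.1 of whole multiples of a step for 87.9% to 100% of values below 12, so they were read as scaled read counts.

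Values were returned to the linear scale, with 0 kept at 0. limma 3.58.1 in R 4.3.3 (trended and robust moderation, no covariate) was fitted to log2 of scaled reads plus a pseudocount of 2 to the power of 7, over 8706 genes with at least 10 scaled reads in 4 libraries, and p-values were adjusted over all of them by the Benjamini-Hochberg method. The code was tested on simulated data. The members and gene lists were chosen with earlier results of these data known. Genes named are the members, the targeted genes and, by list, the 2 with the smallest p and the 2 highest per kilobase, and the 5 tested genes averaging 1000 scaled reads or more whose profile was most like that of Fn1. Some genes that this rule names are not reported here. Likeness to Fn1 used a root mean square difference. Exon lengths and coordinates came from GENCODE M21. Alternatives changed the pseudocount, filter, scaling, covariates and test, and left out each library. Precision is limited by 4 libraries per group and depths of 6.66 to 16.86 M reads.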

Additional observations from a re-analysis of the deposited data

Results flagged for a closer look

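In 10 of 68 groups of 4 libraries, over 35 genes, a single library lay far from the other 3. The 5% of groups set as the chance rate cannot be compared with this count. A group with a single library above 0 is flagged whatever its value, and several flagged groups are of this kind. Fn1 was 79961 scaled reads in WT 3, against 58130 to 61530 in the other WT libraries. Among genes near 0, Itgb3 was 723.6 in YT-ECKO 1 and 5.18 in WT 3, Itga5 was 14.55 in YT-ECKO 3, Itgav was 169.0 in WT 2, Itga3 was 44.76 in WT 4 and Itgb5 was 10.71 in WT 2. Sharpin was 174.1 in WT 3, where the other WT libraries had 0 to 24.52. Serpinh1 was 62954 in WT 4, against 48746 to 49839 in the others, and Adam15 was 2988 in WT 4, against 5761 to 6183.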

How the results depend on the processing

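The Fn1 difference ran from -1.09 to -0.74 over 21 alternatives, and from -1.09 to -0.77 when a library was left out. Its value of -0.74 came from the fit with Xist as a covariate. Itga6 ran from 0.43 to 0.74 and Itgb1 from -0.28 to -0.07. Itga1 (-0.79 to 0.79) and Itga4 (-0.73 to 0.84) each changed sign in 5 alternatives. For both genes these held pseudocounts of 1 and 16 and the fit without YT-ECKO 3. The rest were Xist as a covariate and the fit without WT 2 for Itga1. For Itga4 they were the fits without YT-ECKO 2 and without WT 4. The cause was not tested. limma called 3 genes in all, of which 0 were members. It called 0 with a pseudocount of 1, without a filter and with a mean of at least 1000, as did voom on rebuilt reads, 5 with Xist as a covariate, and 0 (without WT 2) to 6 (without YT-ECKO 3) with a library left out, and 1 without WT 1. With the replicate number as a block it called 5 genes, 1 of them a member, Fn1. Since Fn1 was chosen with this contrast in view, that call is no test of its difference. Deviations of same-numbered libraries correlated at -0.0433 to 0.0763, and those of different numbers at -0.0803 to 0.066. These values show no pairing by number, but with 4 libraries per group they cannot settle whether the libraries were paired. Wwtr1 was also not called with a pseudocount of 16 (adjusted p = 0.0822) or with Xist as a covariate (0.0951), beside the settings that called 0 genes; its adjusted p ran from 0.00141 to 0.854 over all alternatives. The pathway lists had 0 called genes in all 21 alternatives. Genes near 1 read per library are limited by depth.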
